A study of Mus musculus with 2 samples.

Results

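Nuclear oxidative phosphorylation genes encode the chromosomal subunits of the mitochondrial respiratory chain and of ATP synthase. Members were chosen by name among the protein-coding genes of the GENCODE mouse annotation: Nduf followed by a, b, c, s or v and a digit, the 4 Sdh subunits, names that start with Uqcr or Atp5, and the Cox4 to Cox8 subunits. The rule gave 84 of 21911 genes, and 79 of the 84 had an accessible interval over a transcription start site (TSS). These 79 genes used 82 of the 16234 TSS intervals in the table and of 119502 intervals in all. The name rule used no measured value.

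Chromatin accessibility was assayed by ATAC-seq, in which the transposase Tn5 inserts adapters into open DNA, in mouse embryonic stem (ES) cells of the Olig2-mKate2 line after differentiation into neural progenitors (NPs). In this line the fluorescent protein mKate2 reports Olig2, a transcription factor of motor neuron progenitors (pMN). Cells received 100 nM retinoic acid (RA) and the Sonic hedgehog pathway agonist SAG at 100 nM, were sorted live for mKate2 at day 5, and went into transposition as 50000 cells. There was 1 group of 2 replicates, so no comparison between conditions was possible. All cells carried the reporter, and the study's text states that such a sort also takes newly born motor neurons and some OLIG2 and NKX2.2 double positive cells. ES cells had been kept on fibroblast feeders, which were removed by plating before differentiation. The labels do not state whether the replicates came from separate cultures, so their spread may be technical.

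Oxidative phosphorylation passes electrons from NADH and succinate through complexes I to IV to oxygen, and the proton gradient built on the way drives ATP synthase, or complex V. Most subunits are encoded in the nucleus and are assembled with a small set encoded by mitochondrial DNA. Nuclear respiratory factor 1 (NRF1), the ETS family factor GABP and YY1 are textbook regulators of this gene set, which is used in nearly all cell types and which neurons depend on heavily.

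Promoter sequences are shown for 5 members, mostly from the high end of accessibility and none from the middle. The highest member was Atp5g1 (chr11:96075671-96075881, minus strand), and the highest of complex I was Ndufs8 (chr19:3912775-3913024, minus strand). Also shown are the catalytic subunit gene Atp5b (chr10:128083057-128083272, plus strand) and Atp5h, whose promoter held an NRF1 motif (chr11:115419963-115420127, minus strand). The lowest member of complex I was Ndufa9 (chr6:126849145-126849394, minus strand). Ndufa9 exceeded 11.9% of genes with a TSS interval in accessibility, and the others exceeded from 88.3% to 99.0%. The sequences are from RefSeq (GRCm38.p6), run 5′ to 3′ on the strand of the gene, and lie upstream of the RefSeq start site. Motif positions are counted from that site, which can differ from the GENCODE start sites used for intervals. Capitals mark matches, on either strand, to the CCAAT box (CCAAT), the SP/KLF motif (GGGCGG) and the NRF1 motif (GCGCANGCG).
Atp5g1: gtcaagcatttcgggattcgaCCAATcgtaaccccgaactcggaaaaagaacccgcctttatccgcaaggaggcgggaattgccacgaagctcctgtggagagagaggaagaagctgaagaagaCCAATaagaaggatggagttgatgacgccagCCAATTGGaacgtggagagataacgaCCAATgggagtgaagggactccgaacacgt
Ndufs8: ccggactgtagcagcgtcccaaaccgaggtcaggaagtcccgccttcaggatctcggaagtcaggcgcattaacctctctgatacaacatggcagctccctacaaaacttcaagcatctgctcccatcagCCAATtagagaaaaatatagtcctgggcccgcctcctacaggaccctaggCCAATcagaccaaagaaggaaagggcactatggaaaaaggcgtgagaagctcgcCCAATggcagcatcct
Atp5b: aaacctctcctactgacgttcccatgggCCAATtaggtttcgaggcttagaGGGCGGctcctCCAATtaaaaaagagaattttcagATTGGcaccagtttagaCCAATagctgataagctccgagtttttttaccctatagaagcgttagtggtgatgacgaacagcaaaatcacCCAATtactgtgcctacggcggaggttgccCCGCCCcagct
Atp5h: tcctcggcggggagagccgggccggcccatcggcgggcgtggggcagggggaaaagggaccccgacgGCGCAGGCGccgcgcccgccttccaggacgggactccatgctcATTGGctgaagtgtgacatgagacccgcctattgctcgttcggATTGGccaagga
Ndufa9: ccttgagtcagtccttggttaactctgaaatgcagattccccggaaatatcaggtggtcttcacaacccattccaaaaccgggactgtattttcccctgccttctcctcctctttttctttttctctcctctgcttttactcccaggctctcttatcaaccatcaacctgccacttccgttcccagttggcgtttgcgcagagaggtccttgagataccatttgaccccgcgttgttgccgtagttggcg

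Atp5g1 had 5 CCAAT matches, with first bases at -229, -126, -95, -92 and -69 from the start site, of which the pair at -95 and -92 overlapped on opposite strands. Atp5b had 5 as well, and Ndufs8 had 3. Ndufa9 had no capital in the stretch shown, and its only match was to YY1, after the start site.

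Accessibility of a gene was expressed as its promoter density, the fragment counts in its TSS intervals divided by the library's size factor and by the length of the intervals in kb. The libraries held 31876165 and 31672240 counts in intervals. Member intervals held from 14 to 3001 counts in a library, with medians of 960.5 in replicate 1 and 952 in replicate 2. A density is an average over a bulk sample, in which a less open promoter in each cell and an open promoter in fewer cells cannot be told apart. All 4 pMN markers examined had TSS intervals, from 576.8 (Pax6) to 1452.1 (Nkx6-1), and Olig2 itself had 946.1. The p3 marker Nkx2-2 had 711.3 and the floor plate marker Foxa2 had 584.0, both above Pax6, and Shh had no TSS interval. The neuronal genes Tubb3, Mnx1 and Isl1 had 714.2, 557.2 and 472.1. Of the feeder fibroblast markers, 4 of 4 had intervals, from 123.1 (Col1a2) to 472.0 (Col1a1), the last level with Isl1. All were below the median of all genes, as were Pax6, Nkx2-2, Foxa2 and the neuronal genes, so this does not set them apart. Of the pluripotency markers, Pou5f1 and Nanog had no TSS interval and Zfp42 had 237.2.

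A TSS interval was found for 94.0% of the members, against 68.1% of all protein-coding genes. The members' median density was 851.9 ± 13.1 normalised counts per kb (SD, n = 2), and that of all protein-coding genes with a TSS interval was 827.4 ± 18.2. The ratio of these medians was 1.03 ± 0.00680 (SD, n = 2). It fell below 1 under other definitions, to 0.995 when only protein-coding transcripts gave start sites. For counts per gene, summed over its TSS intervals without division by length, it was 0.845. No direction is therefore stated, and the typical member promoter was close in density to the typical promoter with an interval.

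Few members had low promoter density. The SD of log2 density was 0.78 across members and 1.25 across all genes with a TSS interval. The lowest 25% of those genes contained 8 of 79 members, and the highest 25% contained 20. Above the median, which 50% of genes exceed, were 42 of 79. When genes without an interval were included at 0, the highest 25% of all protein-coding genes contained 28 of 84 members, or 33.3%. Cytosolic ribosomal protein genes and proteasome subunit genes, which are used as broadly, had medians of 905.7 ± 36.9 and 931.7 ± 57.3 (SD, n = 2) and SDs of log2 density of 0.65 and 0.77.

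**Figure D1:**
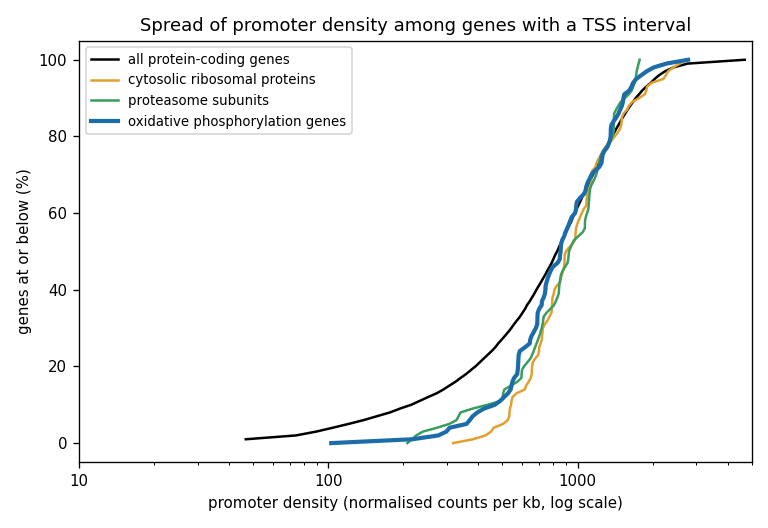
Cumulative share of genes (y axis, percent) at or below each promoter density (x axis, normalised counts per kb, log scale) for genes with a TSS interval. The curve of the 79 oxidative phosphorylation genes runs with those of 80 ribosomal protein and 37 proteasome genes, and lies below the curve of all 14927 genes at low densities.

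Densities of members ran from 102.8 at Cox4i2 to 2775.5 at Atp5g1, a range of 27.0-fold. In counts per gene, without division by length, Cox4i2 was also lowest, but Ndufa13 was highest. After Atp5g1, the highest were Ndufs8, Atp5s, Cox8a and Ndufb7. After Cox4i2, the lowest were Ndufa9, Atp5l, Cox6c and Ndufa1.

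**Figure D2:**
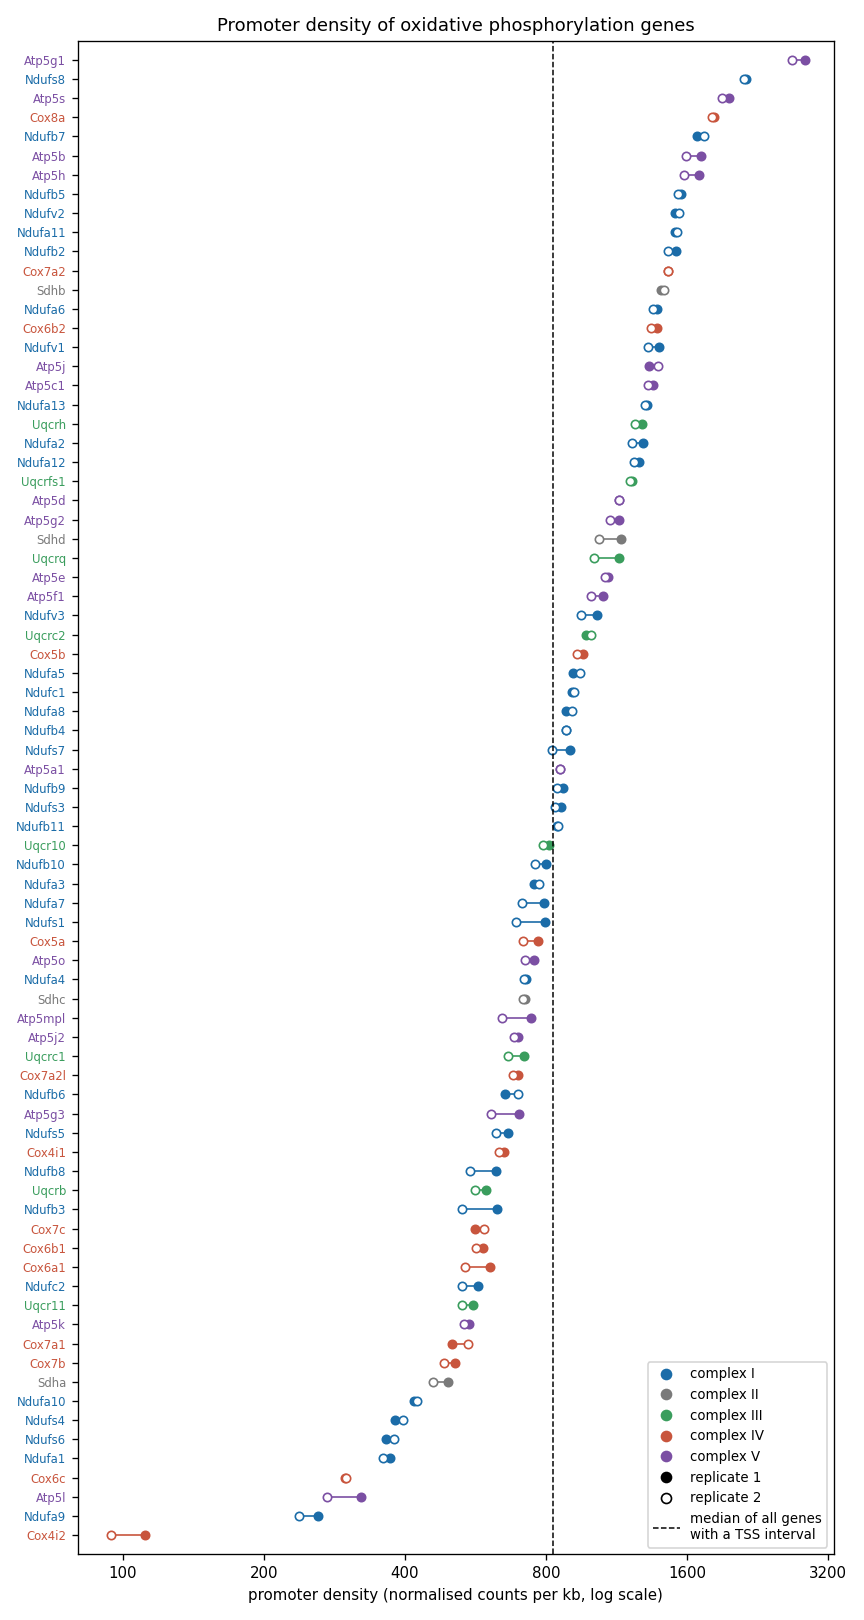
Promoter density (x axis, normalised counts per kb, log scale) of members with a TSS interval, all but 1 of them, ordered by mean, with replicate 1 as filled and replicate 2 as open circles and colour by complex. Replicates lie close together at nearly all of these genes, Cox4i2 stands apart at the low end, and Atp5g1 stands at the high end.

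Genes were assigned to complexes by name alone. Complex I, the NADH dehydrogenase, was thus taken as all Nduf genes of the list, Ndufa4 and Ndufa4l2 among them. Complex I had TSS intervals at 36 of 37 genes and a median of 861.0 ± 20.6 (SD, n = 2). Ndufs8, an iron-sulfur subunit, had 2143.9 normalised counts per kb in replicate 1 and 2113.8 in replicate 2, from an interval with 1963 and 1937 counts at chr19:3912380-3913295. Ndufa9, a subunit of the peripheral arm, had 261.4 and 237.7 from 456 and 415 counts at chr6:126847905-126849649. The highest and the lowest gene of this complex, a pair picked by these values, thus differed 8.53-fold in density. Their intervals were 916 and 1745 bp long. In counts per gene the same pair differed 4.48-fold, with Ndufa13 highest and Ndufs6 lowest in the complex.

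The 7 genes of the catalytic core, which carry the flavin and the iron-sulfur clusters, had a median of 985.0 ± 36.5, and 6 of 7 lay above the median of all genes. Ndufv1, which binds NADH, had 1358.8 ± 54.5, and its partner Ndufv2 had 1524.4 ± 19.4. Ndufs1, the exception, had 797.6 and 691.3 in the 2 replicates. The other 29 genes of complex I with an interval had a median of 844.5 ± 2.61, and 15 of these lay above the median of all genes.

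Ndufs4 and Ndufs6, accessory subunits of the peripheral arm, had 388.6 ± 9.92 and 371.7 ± 10.6 and stood with Ndufa1, Ndufa10 and Ndufa9 in the lowest 25% of genes with a TSS interval. Ndufa1, a subunit of the membrane arm encoded on the X chromosome, had 372.0 and 358.5 in the replicates, from 538 and 519 counts. Ndufb7, a small subunit of the membrane arm, had 1678.4 and 1739.8 in replicates 1 and 2.

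All 4 genes of complex II, succinate dehydrogenase, had a TSS interval, with a median of 907.7 ± 44.8 (SD, n = 2). Sdhb, the iron-sulfur subunit, was highest at 1409.4 and 1432.0 in the 2 replicates. Sdha, the flavoprotein that oxidises succinate, was lowest at 494.4 and 459.5. The promoters of these catalytic partners, the extremes of the complex, therefore differed 2.98-fold. The membrane anchors Sdhc and Sdhd had 718.0 ± 3.52 and 1097.4 ± 86.1.

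Complex III, the cytochrome c reductase, had intervals at 8 of 8 genes and a median of 892.8 ± 0.0201 (SD, n = 2). This SD is small because the middle genes, Uqcr10 and Uqcrc2, moved in opposite directions between replicates. Its genes spanned 2.31-fold in density and 5.69-fold in counts per gene, where Uqcrb was lowest. Uqcrh, the hinge protein, was highest with 1281.1 and 1241.0 normalised counts per kb, and Uqcr11, a small accessory subunit, was lowest with 559.8 and 529.7. Uqcrfs1, the Rieske iron-sulfur protein, had 1215.4 ± 6.52. The core proteins Uqcrc1 and Uqcrc2 had 690.1 ± 37.9 and 987.1 ± 16.7.

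Complex IV, cytochrome c oxidase, had the lowest median, 621.3 ± 12 (SD, n = 2), with intervals at 14 of 18 genes. Only 4 of the 14 lay above the median of all genes: Cox8a, Cox7a2, Cox6b2 and Cox5b. Cox8a, a small transmembrane subunit, had 1826.7 and 1806.1 normalised counts per kb in the replicates. Cox6c, another small subunit, had 297.2 and 299.7, the lowest among the complex IV genes used in all tissues.

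Complex V, ATP synthase, had the highest median, 1075.5 ± 11.3 (SD, n = 2), with intervals at all 17 genes. Atp5g1, which encodes the c subunit of the rotating ring, had 2863.5 normalised counts per kb in replicate 1 and 2687.5 in replicate 2, from 2702 and 2538 counts at chr11:96075275-96076218. It exceeded 99.0% of all genes with a TSS interval. The mature c subunit is also encoded by Atp5g2, at 1123.3 ± 34.9, and Atp5g3, at 656.0 ± 64.1, so genes for the same mature protein differed 4.23-fold in promoter density. From Atp5g1 to Atp5l, the lowest gene of the complex, the range was 9.33-fold in density and 5.24-fold in counts per gene. The highest in counts per gene was Atp5d, whose counts were summed over 2 TSS intervals.

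Genes of the F1 head, where ATP is made, had a median of 1146.2 ± 0.365, and all 5 were above the median of all genes. Atp5b, the catalytic beta subunit, had 1713.8 and 1594.3 in the replicates, and its neighbour in the head, the alpha subunit gene Atp5a1, had 857.0 and 857.2. The 4 genes of the peripheral stalk had a median of 1192.7 ± 0.288, where the middle genes, Atp5f1 and Atp5j, moved in opposite directions between replicates. The small membrane subunits Atp5j2, Atp5k, Atp5l and Atp5mpl were lower, with a median of 605.7 ± 22.9 and 0 of 4 above the median of all genes. Atp5l was lowest at 322.2 and 273.1. Atp5s, a factor linked to ATP synthase that RefSeq now lists as Dmac2l, had 1936.5 ± 44.5.

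Complex IV and the accessory subunit Ndufa4 are known for paralogues that replace the common subunit in particular tissues. Of 8 such tissue-restricted isoforms in the list, 5 had no TSS interval: Cox6a2 and Cox8b, the heart and skeletal muscle forms, Cox7b2 and Cox8c, the testis forms, and Ndufa4l2, the hypoxia-induced form. The other 76 members all had one when any transcript gave start sites. Across all members 79 then had one, against 75 by the gene record start and 78 by protein-coding transcripts only. Restricted isoforms with one numbered 3 under each of these settings. Within 1 kb of the start site, 80 members had one, with 4 restricted isoforms among them. Absence from the interval list shows only that no consensus peak was called at that start site. Intervals nearest to the start sites lay 1755 bp away for Cox6a2, 2522 bp for Cox8b, 10458 bp for Cox8c and 22328 bp for Cox7b2. For Ndufa4l2 an interval of 149 bp lay 680 bp downstream, inside the gene (chr10:127515647-127515795), with 94 and 114 counts.

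Cox4i2, the oxygen-regulated form of lung, had 111.5 and 94.1 normalised counts per kb in the replicates, from 103 and 87 counts. Its common partner Cox4i1 had 650.6 and 634.4, a difference of 6.29 ± 0.641-fold (SD, n = 2), or 17.3-fold in counts per gene without division by length. The Cox4i1 interval, of 2548 bp, also held opposite-strand start sites of Emc8 and Gm27021. Its counts therefore cannot be given to Cox4i1 alone. Cox7a1, the heart and muscle form, had 502.9 and 544.9, against 1461.3 and 1454.6 at Cox7a2, a difference of 2.79 ± 0.167-fold. In both pairs the replicates of the restricted form lay below those of the common form.

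Cox6b2, the testis form, went the other way. It had 1379.1 and 1341.2 normalised counts per kb, above the 586.0 and 565.9 of Cox6b1. The ratio of Cox6b1 to Cox6b2 was 0.423 ± 0.00210 (SD, n = 2), or 0.219 in counts per gene. The interval of Cox6b2 at chr7:4751851-4753427 held 2174 and 2116 counts, and no start site of an opposite-strand protein-coding gene lay in it.

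**Figure D3:**
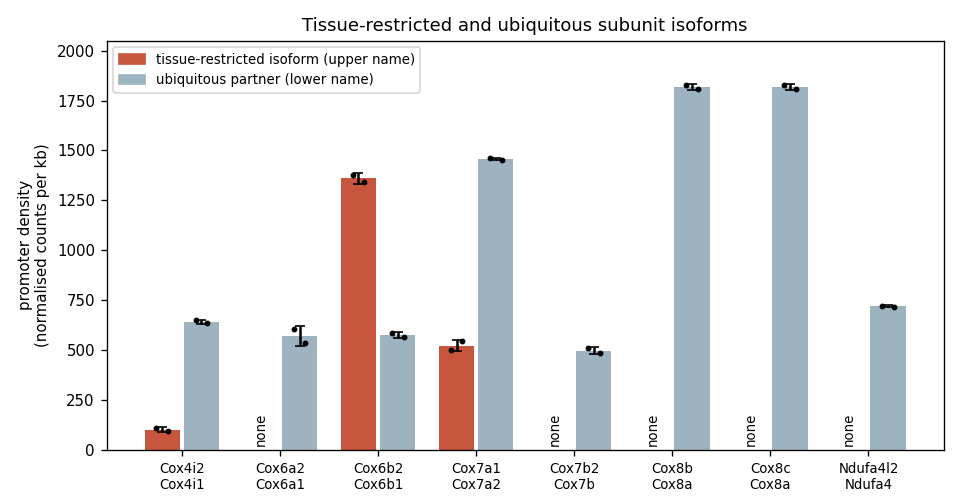
Promoter density (y axis, normalised counts per kb) of 8 tissue-restricted isoforms and of their common partners, with bars for the mean, error bars for the SD and dots for the 2 replicates. The word none marks the 5 isoforms without a TSS interval, and Cox6b2 is the restricted form that stands above its partner. Cox8a is drawn in 2 pairs.

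Each interval was tested for a difference between the libraries with a two-sided exact binomial test and Benjamini-Hochberg adjustment over all 119502 intervals. It called 0 of 82 member intervals at an adjusted p of 0.01, and 0% of all intervals. At an unadjusted p under 0.05 were 12 of 82, against 12.6% of TSS intervals and 8.39% of all intervals. With edgeR TMM factors or total counts, 0 member intervals were called as well. The smallest adjusted p of a member by the exact binomial test was 0.202, at Ndufb3, an accessory subunit of complex I, with 854 and 717 counts in an interval at chr1:58585508-58586864.

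The largest ratio between libraries was 1.2-fold, at the second, weak interval of Atp5l (chr9:44914947-44915312), with 17 and 14 counts. Ndufb3 followed at 1.19-fold, Cox4i2 at 1.18-fold, the main interval of Atp5l at 1.18-fold and Ndufs1 at 1.15-fold. In these 5 the count was lower in replicate 2, as it was in 61 of 82 member intervals and in 65.3% of TSS intervals. The SD of the log2 ratio was 0.0836 over member intervals and 0.0909 over TSS intervals with a mean normalised count over 100.

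**Figure D4:**
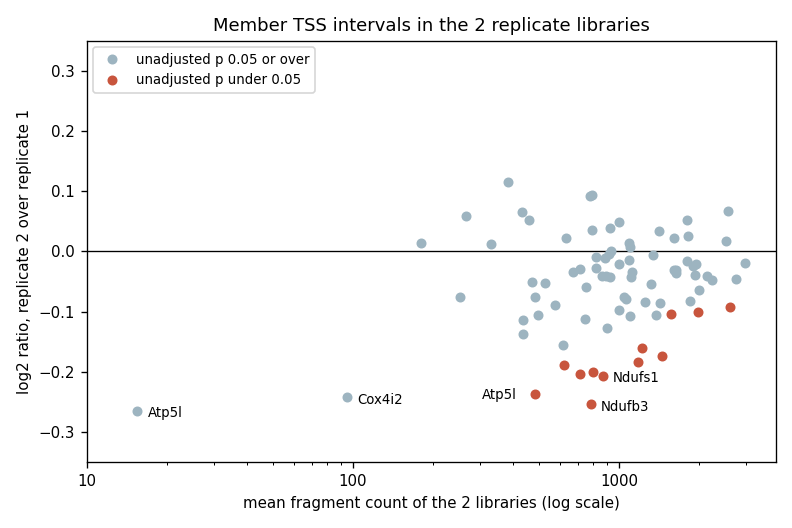
Log2 ratio of replicate 2 to replicate 1 (y axis) against the mean count (x axis, log scale) for the 82 member intervals. The 12 red points have an unadjusted p under 0.05 and all lie below 0, and the 5 intervals with the largest ratios carry the name of their gene.

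The DNA under the member intervals was then described. The median member interval was 1105 bp long, against 1188 bp for all TSS intervals, with a GC content of 56.8% against 59.5% and a ratio of observed to expected CpG of 0.72 against 0.66. A GC content over 50% together with a CpG ratio over 0.6, the usual mark of a CpG island, was found in 68 of 82 member intervals and in 60.2% of TSS intervals. Intervals reached a median of 435.5 bp upstream and 596 bp downstream of the start site in members, against 419 and 699 bp in all genes.

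Many members shared their accessible interval with a gene that starts on the opposite strand. A start site of an opposite-strand protein-coding gene lay in the interval of 30 of 79 members, against 16.7% of all genes with a TSS interval. Counted over intervals, the share was 30 of 82 against 7.63%. Several partners also serve mitochondria or protein synthesis: Ndufb5 was paired with Mrpl47 and Ndufs6 with Mrpl36, both genes of the mitochondrial ribosome, Sdhd with the import factor Timm8b, Ndufa7 with the ribosomal protein gene Rps28, and Ndufs1 with the elongation factor gene Eef1b2. Atp5j was paired with Gabpa, which encodes the DNA-binding subunit of GABP. The counts of such an interval cannot be divided between its genes.

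Members with an opposite-strand partner had a median density of 878.9 ± 4.73, and the 49 without one had 763.7 ± 8.83 (SD, n = 2). Over all genes with a TSS interval the corresponding medians were 1127.2 ± 22.0 and 765.0 ± 15.9. Among partnered genes the members' median was the lower of the pair by more than the SDs, and without a partner the medians differed by less than the SDs.

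Fewer distal intervals lay around members than around other genes. With each interval outside a start site given to the nearest protein-coding start site, the median member had 1 and the median gene with a TSS interval had 3. None was nearest to 33 of 79 members, against 20.9% of genes. Most were nearest to Atp5g3, with 19, and Ndufs4, with 16. The strongest was 31577 bp from the start of Ndufa12 (chr10:94230214-94231014), with 1280 and 1325 counts and 1626.1 ± 38.8 normalised counts per kb, above the 1247.8 ± 20.5 of the Ndufa12 promoter. Nearness does not show which gene an interval acts on.

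Motifs were counted in RefSeq promoter windows from 250 bases before to 50 after the start site, which were found for 68 of 84 members, 66 of them with a TSS interval, and for 11738 genes with a TSS interval in all. Each motif was sought on both strands, and its position was counted from the RefSeq start site. A match is a run of letters, not evidence that a factor binds. At least 1 of the NRF1 (GCGCANGCG), ETS (CCGGAAG) and YY1 (AAGATGGCG) motifs was present in 35 of 66 members and in 30.6% of genes.

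The NRF1 motif was present in 20 of 66 members and in 13.9% of genes, ETS in 16 and 17.8%, and YY1 in 7 and 3.12%. At least 2 of these 3 motifs were present in 8 members, Atp5h, Atp5j, Atp5k, Atp5l, Cox6a1, Ndufs6, Sdhd and Uqcr11, and in 4.17% of genes. The SP/KLF motif went the other way, with 27 of 66 members and 68.3% of genes. CCAAT was present in 29 members and 42.7% of genes, the cAMP response element (CRE, TGACGTCA) in 4 and 3.49%, and TATAAA in 5 and 8.8%.

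**Figure D5:**
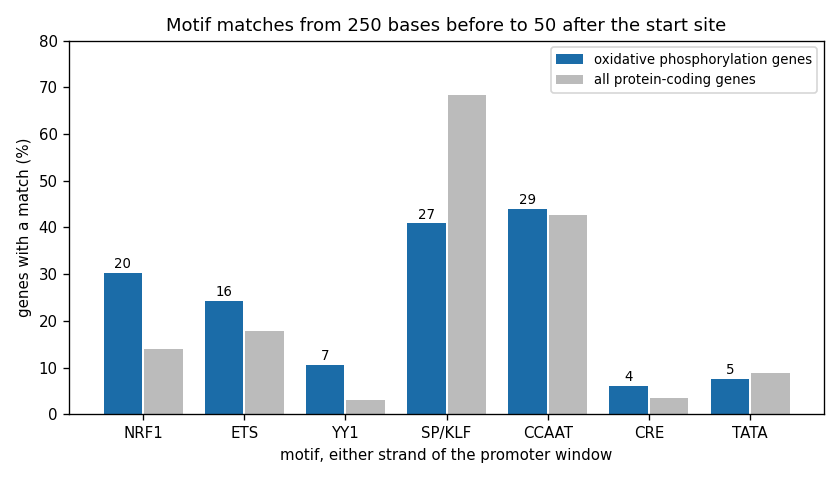
Share of genes (y axis, percent) with each motif in the promoter window, for 66 oxidative phosphorylation genes with a TSS interval in blue, with the number of genes above each bar, and for 11738 genes with a TSS interval in grey. The NRF1, ETS, YY1 and CRE bars are higher for members, as is the CCAAT bar by little, and the SP/KLF and TATA bars are lower.

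Most YY1 matches of members lay just after the RefSeq start site. All 7 were on the sense strand, against 75.6% of 393 matches over genes with a TSS interval. Of those 393 matches, 58.3% began after the start site, at any place in the window. Of the member matches, 6 of 7 began 23 to 36 bases after the RefSeq start site. Thus 1 was left when only the 250 bases before that site were searched. The ATG inside the match was an annotated start codon in those 6 members, and in 35.9% of matches over all genes. The 30 bases around each match are shown because they carry this pattern, from RefSeq (GRCm38.p6), 5′ to 3′ on the strand of the gene with the motif in capitals. They are at chr3:51408914-51408943 for Ndufc1, chr5:145191499-145191528 for Atp5j2, chr6:126849096-126849125 for Ndufa9, chr10:80249463-80249492 for Ndufs7, chr13:73328433-73328462 for Ndufs6, chr13:114388045-114388074 for Ndufs4 and chr16:84835045-84835074 for Atp5j. Ndufs7 is on the plus strand and the others are on the minus strand. The GENCODE gene record of Ndufs7 starts farther upstream, at chr10:80249121.
Ndufc1: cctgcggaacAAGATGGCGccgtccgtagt
Atp5j2: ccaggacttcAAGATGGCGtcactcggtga
Ndufa9: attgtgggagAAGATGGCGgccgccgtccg
Ndufs7: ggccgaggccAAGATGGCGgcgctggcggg
Ndufs6: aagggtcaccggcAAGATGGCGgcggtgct
Ndufs4: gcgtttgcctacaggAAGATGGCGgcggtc
Atp5j: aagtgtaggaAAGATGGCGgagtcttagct

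Atp5j, at -88, was the exception in position. The densities of these genes ranged from 249.6 at Ndufa9 to 1356.4 at Atp5j, and their median of 690.6 was below the 895.1 of members without the motif, whereas over all genes the medians were 1004.5 with it and 844.3 without it.

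Sdha held 3 NRF1 matches, at -98, -55 and -10 from the RefSeq start site (chr13:74350319-74350348, chr13:74350276-74350305 and chr13:74350231-74350260, minus strand). The last match ended just before that site but lay after the start of the GENCODE gene record, chr13:74350280. The matches are shown in the same way.
Sdha at -98: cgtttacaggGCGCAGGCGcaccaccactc
Sdha at -55: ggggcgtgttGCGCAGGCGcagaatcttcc
Sdha at -10: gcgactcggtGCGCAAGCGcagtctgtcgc

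Sdha was the lowest gene of complex II. Across members, those with an NRF1 match had a median of 758.4 and those without had 931.1, while over all genes the order was reversed, at 1004.4 and 822.6. This difference in order depended on the window: with the 250 bases before the start site alone, the medians with and without a match were 889.1 and 855.0 in members and 1011.5 and 827.4 in all genes. With and without SP/KLF the medians were 1028.9 and 753.4 in members, and 932.4 and 676.0 in all genes.

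Repeated CCAAT boxes were counted after the sequences of the highest promoters had been seen. At least 3 matches were present in 6 of 66 members and in 5.55% of genes. The 6 members were Atp5b, Atp5g1, Cox6b1, Cox6b2, Ndufb11 and Ndufs8. Atp5g1, Ndufs8 and Atp5b are the promoters that prompted the count, so their densities say nothing of it. The other 3 had 576.0 (Cox6b1), 1360.2 (Cox6b2) and 848.3 (Ndufb11), and all genes with at least 3 matches had a median of 1444.1.

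Genes that build and feed the respiratory chain were compared by the same measures. Assembly factors had TSS intervals at 47 of 48 genes and a median of 1100.5 ± 26.5 (SD, n = 2), from 297.2 at Uqcc2 to 2898.2 at Bcs1l, and 29 of the 47 were above the median of all genes. The citric acid cycle had 13 of 13 and 1073.5 ± 2.05, with Ogdh highest at 2106.8. Glycolysis had 17 of 17 and 1150.0 ± 19.5, from Eno2 at 423.9 to Pfkl at 1930.1. Each of these medians was above the 851.9 of the subunit genes.

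Of the subunits and carriers outside the name rule, Ndufab1, the acyl carrier protein of complex I, had 1649.6, cytochrome c (Cycs) had 1389.0, and cytochrome c1 (Cyc1) had 673.9. Regulators of mitochondrial genes had intervals at 11 of 11 genes and a median of 1260.2 ± 48.3. The highest was Tfb1m, a mitochondrial rRNA methyltransferase, at 2218.5, and the lowest was Ppargc1a, the coactivator PGC-1alpha, at 92.1, below the mean of every member.

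Chromosomes moved with some of these values. Genes on chromosome 8 with a TSS interval had a median density of 1189.2 ± 29, 1.44 times that of all genes, and genes on the X chromosome had 503.3 ± 2.48, 0.609 times. The 3 members on chromosome 8, Ndufb7, Ndufa13 and Cox4i1, had a median of 1308.1 and the 3 on the X chromosome, Ndufb11, Cox7b and Ndufa1, had 498.0. Without both chromosomes the ratio of the member median to that of all genes was 1.03, and the part of the chromosome in the values of these 6 genes was not tested.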

How the data were processed

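Live ATAC-seq was analysed in 1 group of 2 replicates. The authors deposited raw fragment counts per consensus interval. Per the file header these came from featureCounts 2.0.1 on read pairs, with a fragment counted in every interval it overlapped by a fraction of at least 0.2. The study's methods describe the nf-core pipeline, the mouse build mm10, MACS peaks and intervals found in replicates. The deposited interval lengths were used for densities. Another 3 columns could be tied to no sample here and were not used, although those libraries helped to define the intervals.

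Size factors were from DESeq2 1.42.0, and TMM factors from edgeR 4.0.16 served as an alternative. A gene's density was the summed normalised count of its TSS intervals over their summed length. Start sites were the 5′ ends of any transcript of protein-coding genes in GENCODE M21, without the mitochondrial genome, and genes were kept by symbol. All intervals ended inside the chromosomes of that assembly. The totals of 31876165 and 31672240 counts set the precision, and fragments carried no molecular identifiers. The replicate test was a two-sided exact binomial test against the share set by the size factors, adjusted after Benjamini-Hochberg and called at 0.01. It compares libraries, not conditions. Its check used counts simulated under the binomial model of the test itself, so the check does not measure its behaviour on real libraries. Other steps used Python 3.11.15, numpy 2.4.6, pandas 2.3.3, scipy 1.17.1 and statsmodels 0.14.6.

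Members and lists were chosen with earlier results of these data known. Values were given for the highest and lowest gene of each complex, the 5 highest and 5 lowest members, the members without an interval, the isoform pairs and the 5 intervals farthest apart between replicates. Other members were named from the list as examples of their role. Of other lists the highest and lowest genes were named, and other genes beside these were chosen after their values were seen. RefSeq promoter windows were matched by symbol or unique synonym, and their start sites can differ from those of GENCODE. The members without one include Atp5a1, Atp5mpl, Cox4i1, Cox4i2, Cox6a2, Cox6c, Cox8c, Ndufa2, Ndufa4l2, Ndufb9, Ndufs1, Sdhc, Uqcrb, Uqcrc2 and Uqcrq. Printed sequences were compared with the GRCm38.p6 genome, and 15 of 15 were equal to it at their coordinates. Alternatives covered the normalisation, division by length, the start site definition, a filter on low counts, the motif window and each replicate left out. Fixed, antibody-sorted cells were not analysed here, and some items that met the rules are not reported here.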

Additional observations from a re-analysis of the deposited data

How the results depend on the processing

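The ratio of the member median to the median of all genes was 1.03. It turned below 1 with counts per gene (0.845), with the start of the gene record alone (0.962) and with intervals over a mean normalised count of 100 (0.974). It also did so with protein-coding transcripts only (0.995), an alternative chosen after seeing the data. It was 1.11 with intervals within 1 kb of the start site and 1.14 over distinct intervals. Counts per gene are on another scale, with a member median of 1009.5. The medians of complexes I to V were then 967.7, 1017.8, 1087.5, 802.8 and 1424.0. The isoform ratios were 17.3 for Cox4i1 over Cox4i2, 0.219 for Cox6b1 over Cox6b2 and 3.49 for Cox7a2 over Cox7a1. Complex IV remained the lowest and complex V the highest on this scale. The complex IV median was 600.1 with the gene record start and 642.5 with the filter at 100, which left out the interval of Cox4i2. The complex V median was 1099.4 with protein-coding transcripts only. Members with a YY1 motif fell from 7 to 1 when only the 250 bases before the start site were searched, since the other matches lie after it. In total 109 values stayed within the replicate spread or, for counts, within 1.5 times, 15 moved further and 4 turned. Part of the 109 was fixed in advance, so this number does not measure robustness. With 2 replicates, a median or ratio with either left out always lies within the SD. Normalisation factors cancel in ratios taken within a library. With each replicate left out in turn, the member median ranged from 842.7 to 861.2 and the ratio from 1.02 to 1.03. Normalisation by TMM or total counts changed no call.

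No paired analysis was possible because the samples form a single group, so that replicate numbers have no partner. With 2 replicates, an SD rests on a single difference, and the 14 and 17 counts of the weak Atp5l interval and the 87 and 103 counts of Cox4i2 give the least precise member values.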
